A study of Mus musculus with 6 samples.

Results

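The 40 genes described here encode enzymes that degrade amino acids, and they were taken by symbol from a fixed list of enzymes for the aromatic, branched-chain, histidine, serine, glycine, lysine and proline pathways together with the main transaminases. All 40 were present among the 25184 genes of the count table, and all 40 passed the filter on low counts (a mean normalized count above 5), which left 15105 genes. RNA was sequenced from primary hepatocytes, the parenchymal cells of the liver, of 6 mice, 3 of them Sucnr1 fl/fl and the other 3 Hep-Sucnr1 KO. Both groups carried floxed alleles of Sucnr1, which encodes the receptor for extracellular succinate. Hep-Sucnr1 KO mice carried in addition a Cre recombinase driven by the albumin promoter, which is active in hepatocytes (Alb-Cre+/-), and the Sucnr1 fl/fl controls carried no Cre. The mice were on a C57BL6J background, and the labels give neither the age nor the sex of the animals behind the 6 libraries. The cells had been kept overnight on collagen in attachment medium before extraction, so the values are those of cultured hepatocytes. RNA of Sucnr1 fl/fl replicate 1 and Hep-Sucnr1 KO replicate 3 was extracted on day 1, and RNA of the other 4 libraries on day 2.

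The liver is the main site where amino acids taken up in excess are broken down. Transaminases move the amino group to 2-oxoglutarate, the carbon skeletons enter the tricarboxylic acid cycle, ketone bodies or glucose synthesis, and the nitrogen leaves as urea. Many of these enzymes are nearly restricted to liver and kidney, and several are induced by glucocorticoids, glucagon or a protein-rich diet. Along the liver lobule, the enzymes of serine, histidine and alanine breakdown are known as periportal. The question put to the libraries was whether the transcripts of these enzymes differed between hepatocytes with and without Sucnr1, in a study that also measured circulating amino acids and transaminases.

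Library totals lay between 30504248 and 38770694 counts, so that counting error was small for every enzyme, including the least abundant member by count, Sdsl. Values are given in CPM, counts scaled to a common library total (counts per 1e6) with the TMM factors of edgeR. Counts of the deleted gene were 258, 118 and 103 in the Sucnr1 fl/fl libraries against 84, 28 and 5 in Hep-Sucnr1 KO replicates 3, 4 and 5. This was a log2 difference of −2.23 (standard error 0.54), its adjusted p being 0.998 in edgeR and of 0.0328 in DESeq2, and Hep-Sucnr1 KO replicate 3 retained the most of the 3. All 7 hepatocyte markers found in the table were strongly expressed, summed at 68920 to 91216 CPM in Sucnr1 fl/fl libraries and at 59551 to 93238 CPM in Hep-Sucnr1 KO libraries. The 8 Kupffer cell markers summed to 28.5 to 103.5 CPM in Sucnr1 fl/fl libraries against 5.92 to 89.0 CPM in Hep-Sucnr1 KO libraries, with the lowest sum in Hep-Sucnr1 KO replicate 3. All 8 had a lower estimate in Hep-Sucnr1 KO, which rested on day 1. Their ratio of Hep-Sucnr1 KO to Sucnr1 fl/fl ran from 0.041 (Marco) to 0.347 (C1qa) on day 1. On day 2 it was 0.829 for Marco and between 1.11 (Adgre1) and 1.265 (Cd5l) for the rest. The 8 sinusoidal endothelial markers summed to 29.1 to 55.1 and 23.7 to 37.7 CPM, the 8 stellate cell markers to 5.97 to 24.8 and 4.72 to 9.77 CPM, and the 8 cholangiocyte markers to 358 to 520 and 433 to 656 CPM, in the same order of genotypes. No marker of these lists was at 0 in every library. The part of these cells in the differences given here was not tested. In such bulk libraries, fewer cells of a type and less RNA per cell cannot be told apart.

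Compared per length, as CPM per kb of exon, the enzymes of phenylalanine and tyrosine breakdown were the most abundant group. Hpd, which converts 4-hydroxyphenylpyruvate to homogentisate, had the highest level of the 40, 330.5 CPM per kb over the 6 libraries, and ranked 147 among the 15105 genes tested. Tat, the transaminase that opens the tyrosine pathway, followed with 287 CPM per kb, and Fah, the last enzyme of the pathway, with 136 CPM per kb. Agxt, the alanine-glyoxylate aminotransferase, reached 128 CPM per kb and Tdo2, which opens the indole ring of tryptophan, 101 CPM per kb. The lowest levels were those of Mccc1 (2.67 CPM per kb), Afmid (4.41) and Hibch (5.49), on the same length-scaled quantity. The median over the 40 genes was 35.6 CPM per kb against 2.17 over all genes tested. The exon length is the union of all annotated exons of a gene (10952 bases for Mccc1), not the length of a single transcript.

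**Figure D1:**
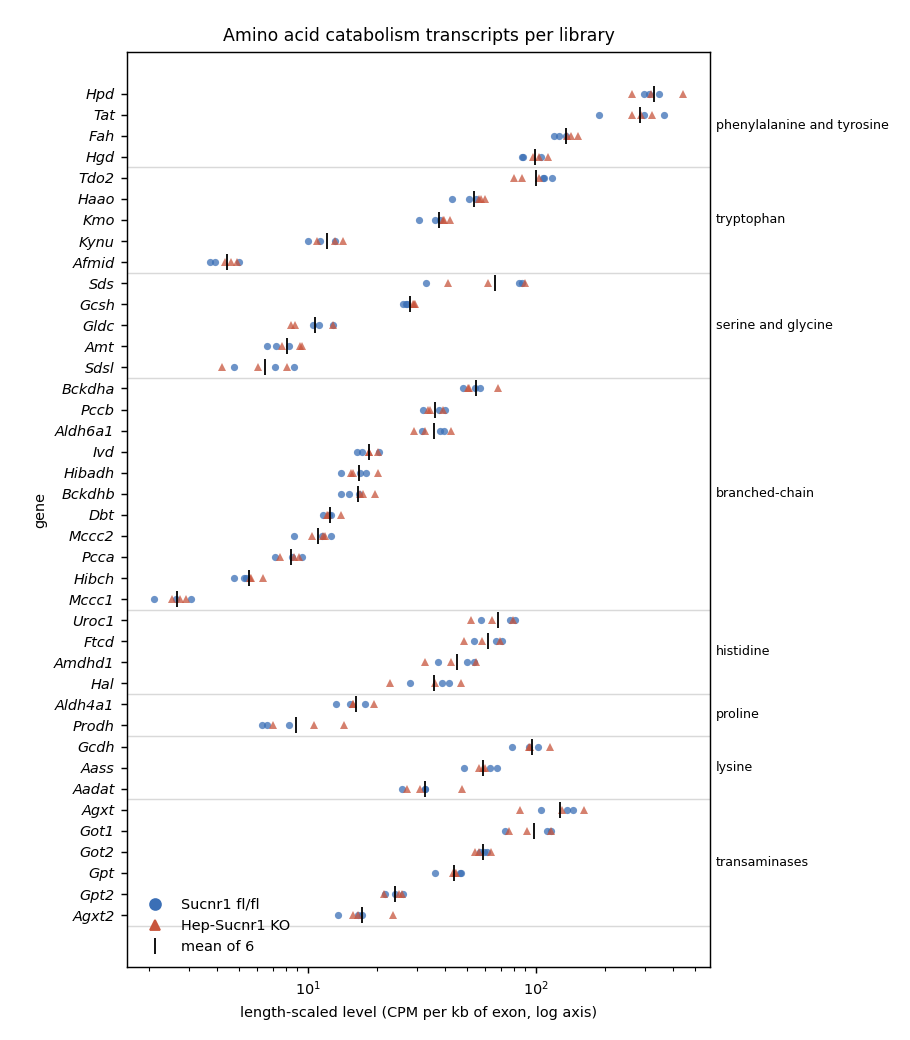
Length-scaled level of each of the 40 enzymes (horizontal log axis, CPM per kb of exon) in 3 Sucnr1 fl/fl libraries (circles) and 3 Hep-Sucnr1 KO libraries (triangles), with the mean of the 6 libraries as a bar, grouped by pathway. Levels run from 2.67 CPM per kb for Mccc1 to 330.5 for Hpd, and the symbols of the genotypes are interleaved for most genes.

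No enzyme of the list passed the test for genotype. With edgeR's quasi-likelihood test and adjustment over all 15105 genes, 0 of the 40 members and 0% of all genes were called at an FDR of 0.05, and the adjusted p was 0.998 for each member. Without adjustment, 0 members had a p under 0.05, against 3.73% of all genes. DESeq2 called 0 members as well, against 0.0636% of the genes to which it gave an adjusted p. There, 2 members, Tdo2 and Prodh, had an unadjusted p under 0.05, as had 435 of all 15105 genes. The estimate was higher in Hep-Sucnr1 KO for 26 members and lower for 14, so that 65% of the members had a higher estimate against 50.5% of all genes. The median log2 fold change was 0.07 for the members and 0.003 for all genes tested. This direction rested on single libraries and terms: without Sucnr1 fl/fl replicate 2 the median was −0.01 with 20 higher members, and when a term for the series of library indexes was added it was −0.07 with 17 higher members.

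The precision behind these estimates differed between enzymes. For 38 of the 40 members, the 95% interval of the fold change lay inside a doubling and a halving, and for 25 it lay inside a 1.5-fold change in either direction. All 11 branched-chain enzymes were among those 25. The 2 members whose interval passed a doubling or halving were Prodh and Sds. The median standard error of the log2 fold change was 0.15 for the members and 0.20 for all genes.

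**Figure D2:**
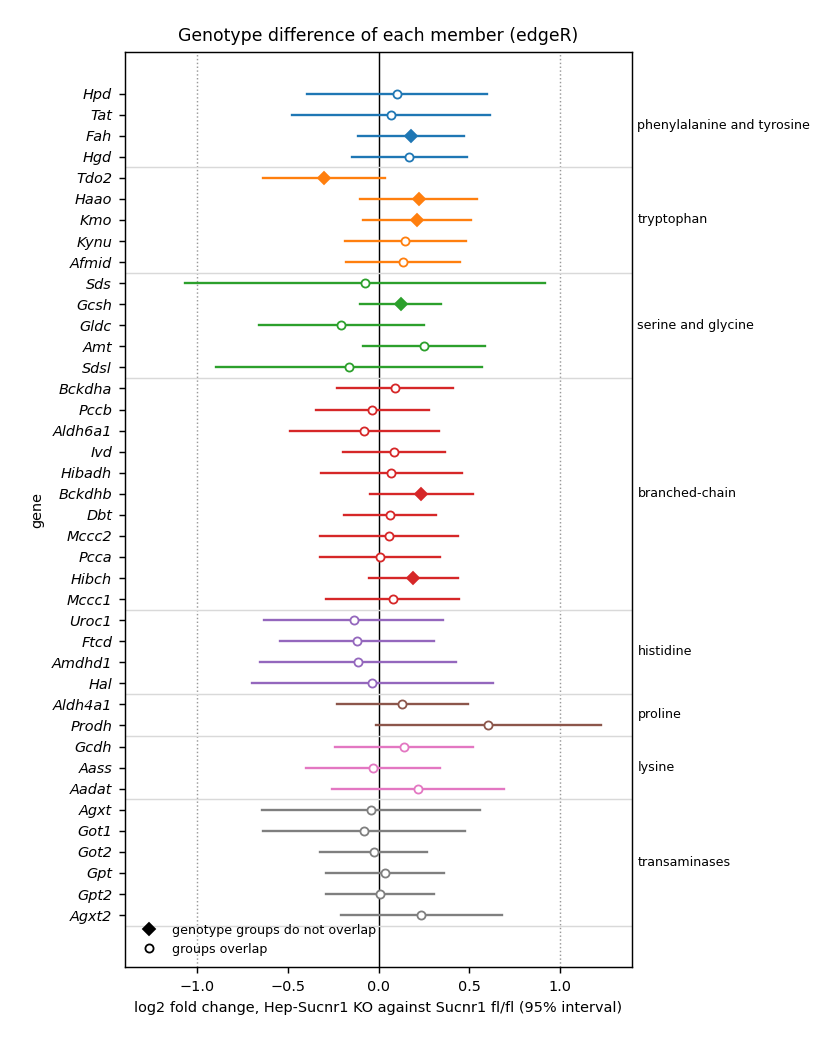
Log2 fold change of each enzyme, Hep-Sucnr1 KO against Sucnr1 fl/fl, with its 95% interval from edgeR with extraction day in the model, by pathway. Filled diamonds are the 7 members whose 3 values of each genotype do not overlap, dotted lines mark a doubling and a halving, and every interval includes 0.

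In 7 of the 40 members, all 3 values of one genotype lay above all 3 of the other, against 10.6% of all genes tested. In 6 of them Hep-Sucnr1 KO was higher, against 6.55% of all genes, and in 1 it was lower, against 4.04%. With 3 libraries per genotype, a two-sided exact permutation test cannot give a p below 0.1. The 7 were Tdo2, Kmo, Haao, Fah, Gcsh, Bckdhb and Hibch, and 3 of them belong to the kynurenine pathway of tryptophan. They remained without overlap when DESeq2's size factors replaced TMM, while with library size alone Gcsh and Hibch overlapped. When Sucnr1 fl/fl replicate 3 was left out, 12 members did not overlap, but a comparison of fewer values raises this count for any gene. The share of all genes without overlap was not computed for that comparison.

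In the tryptophan pathway, the entry enzyme Tdo2 had an estimate below 0 and the 4 enzymes after it had estimates above 0, and none passed the test. Tdo2 (ENSMUSG00000028011, chr3:81957090-81976202, minus strand, GRCm38) had 415, 423 and 455 CPM in Sucnr1 fl/fl replicates 1 to 3 and 337, 401 and 312 CPM in Hep-Sucnr1 KO replicates 3 to 5. The 3 Hep-Sucnr1 KO values were the lowest of the 6. The means were 431 ± 21.2 and 350 ± 45.8 CPM (SD, n = 3), the fold change was 0.811 with a 95% interval from 0.642 to 1.02, and the log2 fold change was −0.30 (standard error 0.14). The unadjusted p was 0.0721, and the ratio of Hep-Sucnr1 KO to Sucnr1 fl/fl was 0.811 on day 1 and 0.812 on day 2.

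Kmo, the kynurenine 3-monooxygenase (chr1:175620381-175662116, plus strand), had 179, 146 and 170 CPM in Sucnr1 fl/fl and 186, 188 and 199 CPM in Hep-Sucnr1 KO libraries. Its log2 fold change was 0.21 (standard error 0.12, unadjusted p of 0.133). Haao, which oxidizes 3-hydroxyanthranilate (chr17:83831156-83847963, minus strand), had 238, 202 and 257 against 269, 280 and 263 CPM. All Hep-Sucnr1 KO values of both genes were above the Sucnr1 fl/fl values, by a margin that was small against the range inside Sucnr1 fl/fl. The log2 fold change of Haao was 0.22 (standard error 0.14, unadjusted p of 0.149). Kynu, which splits kynurenines, and Afmid, which releases kynurenine from its formyl form, overlapped between genotypes with log2 fold changes of 0.15 and 0.14, which became −0.01 and −0.08 when a term for the series of library indexes was added. A difference in direction between Tdo2 and the later enzymes was not tested.

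**Figure D3:**
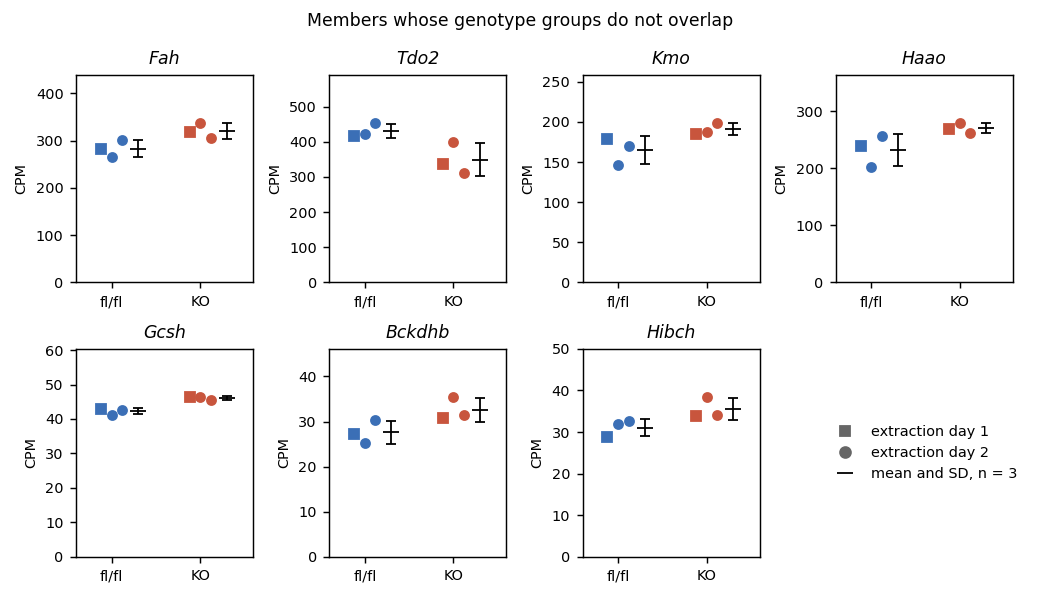
CPM per library (vertical axes from 0) of the 7 members whose genotype groups do not overlap, with squares for extraction day 1, circles for day 2, and the mean and SD of 3 libraries as black bars. Tdo2 is lower in all 3 Hep-Sucnr1 KO libraries, from 312 to 401 CPM, and the other 6 genes are higher, Gcsh with the narrowest spread.

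In phenylalanine and tyrosine breakdown, all 4 estimates were above 0, and none passed the test. Fah, the fumarylacetoacetase (chr7:84585159-84606722, minus strand), had 281, 266 and 302 CPM in Sucnr1 fl/fl and 317, 338 and 305 CPM in Hep-Sucnr1 KO libraries. The highest Sucnr1 fl/fl and the lowest Hep-Sucnr1 KO value were only 302 and 305 CPM. The log2 fold change was 0.18 (standard error 0.12, unadjusted p of 0.194). Hpd had 634, 666 and 736 against 681, 943 and 559.5 CPM, so its highest and its lowest library were both Hep-Sucnr1 KO, replicates 4 and 5. Its log2 fold change was 0.10 (standard error 0.21), and without Hep-Sucnr1 KO replicate 4 it was −0.14. Tat had 874, 454 and 717 against 694, 632 and 776 CPM, a 1.93-fold range that lay inside Sucnr1 fl/fl. Hgd, the homogentisate dioxygenase, ranged from 227 to 296 CPM.

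In serine and glycine breakdown, the spread between mice was the widest and the narrowest of the whole list. Sds, the serine dehydratase that yields pyruvate (chr5:120476526-120483932, plus strand), had 143, 55.6 and 148 CPM in Sucnr1 fl/fl and 104, 70.0 and 151 CPM in Hep-Sucnr1 KO libraries. The groups overlapped, with Sucnr1 fl/fl replicate 2 and Hep-Sucnr1 KO replicate 4 low, and the range over the 6 libraries was 2.72-fold. The fold change was 0.95 with an interval from 0.478 to 1.89, too wide to show a moderate difference. Its neighbour Sdsl, a related dehydratase on the opposite strand 3715 bases away, kept nearly the same order of libraries at 6.26 to 13.0 CPM.

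Gldc, Amt and Gcsh encode the P, T and H proteins of the mitochondrial glycine cleavage system. Gcsh (chr8:116981810-116993537, minus strand) had 43.0, 41.2 and 42.7 CPM in Sucnr1 fl/fl and 46.3, 46.4 and 45.4 CPM in Hep-Sucnr1 KO libraries. The groups did not overlap, and the 1.13-fold range over all 6 libraries was the smallest of the 40 genes. The log2 fold change was 0.12 (standard error 0.09, unadjusted p of 0.236). Gldc, the decarboxylase, had 78.6, 64.1 and 68.1 against 53.3, 51.3 and 78.2 CPM. Hep-Sucnr1 KO replicates 3 and 4 were below the Sucnr1 fl/fl range and replicate 5 was inside it, and the log2 fold change moved from −0.21 (standard error 0.19) to −0.45 (standard error 0.13) without replicate 5. Amt, the aminomethyltransferase, had 20.1, 17.6 and 16.1 against 18.7, 22.4 and 23.0 CPM. Its log2 fold change was 0.25 (standard error 0.14) in all libraries and 0.42 (standard error 0.15, unadjusted p of 0.0309) in the day 2 libraries alone. In that fit of day 2, 1 of the 40 members had an unadjusted p under 0.05, as had 312 of all 15122 genes. The ratio of Hep-Sucnr1 KO to Sucnr1 fl/fl for Amt was 0.932 on day 1 and 1.345 on day 2. The ratio of Gldc to Amt counts ran from 3.64 to 4.22 in Sucnr1 fl/fl and from 2.29 to 3.40 in Hep-Sucnr1 KO libraries. That of Gldc to Gcsh overlapped, at 1.56 to 1.83 against 1.10 to 1.72. Such ratios were computed for several pairs of members, and only that of Gldc to Amt did not overlap between genotypes. Neither ratio of Gldc was tested, and the values of Gldc and of Amt each overlapped between genotypes. Dld, the shared dihydrolipoyl dehydrogenase of this system and of the branched-chain complex, showed a log2 difference of 0.05 (standard error 0.10).

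The 11 enzymes of branched-chain amino acid breakdown formed the largest group, with 9 estimates above 0, 2 below and a median log2 fold change of 0.07. Bckdha, Bckdhb and Dbt encode the E1 alpha, E1 beta and E2 subunits of the branched-chain ketoacid dehydrogenase, the committed step. Bckdhb (chr9:83925145-84124240, plus strand) had 27.2, 25.3 and 30.4 CPM in Sucnr1 fl/fl and 30.7, 35.5 and 31.4 CPM in Hep-Sucnr1 KO libraries. All Hep-Sucnr1 KO values were higher, the nearest pair of values by 30.4 against 30.7 CPM. The log2 fold change was 0.24 (standard error 0.12), the unadjusted p was 0.0906, and the ratio of the genotypes was 1.13 on day 1 and 1.20 on day 2. Dbt had 41.3, 39.1 and 42.3 against 40.8, 46.6 and 40.9 CPM. Its fold change was 1.05 with a 95% interval from 0.876 to 1.25, so that a 1.5-fold change of this transcript lay outside the interval. Bckdha had 91.0, 103 and 109 against 96.0, 129 and 96.8 CPM and overlapped, with Hep-Sucnr1 KO replicate 4 highest. Bckdk and Ppm1k, the kinase and phosphatase that switch the complex off and on, had log2 fold changes of −0.13 (standard error 0.27) and −0.23 (standard error 0.17).

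Further along the pathway, Hibch, the 3-hydroxyisobutyryl-CoA hydrolase of valine breakdown (chr1:52844929-52920986, plus strand), had 28.8, 31.9 and 32.6 CPM in Sucnr1 fl/fl and 33.9, 38.5 and 34.1 CPM in Hep-Sucnr1 KO libraries. These groups did not overlap, with a log2 fold change of 0.19 (standard error 0.10, unadjusted p of 0.104). Aldh6a1, the dehydrogenase of methylmalonate semialdehyde, had 219, 184 and 229 against 169, 245 and 189 CPM. Its groups overlapped, with the lowest and the highest of the 6 values both in Hep-Sucnr1 KO, and its log2 fold change of −0.08 (standard error 0.17) was the lowest of this group. The paired subunits of carboxylases kept close ratios, since the ratio of Mccc1 to Mccc2 counts, the subunits of methylcrotonyl-CoA carboxylase, ran from 0.819 to 1.04, and that of Pcca to Pccb, of propionyl-CoA carboxylase, from 0.419 to 0.473. Ivd and Hibadh, the dehydrogenases of isovaleryl-CoA and of 3-hydroxyisobutyrate, had log2 fold changes of 0.09 and 0.07.

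The 4 enzymes that turn histidine into glutamate followed a shared order of libraries that did not divide the genotypes. Hal, the histidine ammonia-lyase, had 215, 156 and 231 CPM in Sucnr1 fl/fl and 200.3, 127 and 260.2 CPM in Hep-Sucnr1 KO libraries. Uroc1, the urocanate hydratase and the most abundant of the 4 per length, had 267, 199.6 and 280.3 against 223, 179.7 and 276 CPM. Amdhd1, the imidazolonepropionase, whose gene lies 4033 bases from Hal, had 121, 90.2 and 129.6 against 103, 78.7 and 133 CPM. Ftcd, which passes the formimino group to tetrahydrofolate, had 228, 172 and 214 against 185, 155 and 223 CPM. In all 4, Hep-Sucnr1 KO replicate 4 was lowest, Sucnr1 fl/fl replicate 2 second lowest and Hep-Sucnr1 KO replicate 3 next. All 4 estimates were below 0, from −0.14 (standard error 0.21) for Uroc1 to −0.03 (standard error 0.28) for Hal, and 0 passed the test.

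Proline breakdown held the largest genotype estimate of the list. Prodh, the proline dehydrogenase of the inner mitochondrial membrane (ENSMUSG00000003526, chr16:18060357-18090203, minus strand), had 51.4, 48.9 and 64.1 CPM in Sucnr1 fl/fl and 83.2, 112 and 54.7 CPM in Hep-Sucnr1 KO libraries. Hep-Sucnr1 KO replicates 3 and 4 were above all Sucnr1 fl/fl libraries, and replicate 5 was inside their range. The means were 54.8 ± 8.20 and 83.3 ± 28.6 CPM (SD, n = 3), with a fold change of 1.52 and a 95% interval from 0.989 to 2.34. On the log2 scale this was 0.61 (standard error 0.26, unadjusted p of 0.0549). The estimate was 0.28 (standard error 0.22) without replicate 4 and 0.86 (standard error 0.17, unadjusted p of 0.00139) without replicate 5, where the smallest edgeR adjusted p of any member was 0.475. The ratio was 1.62 on day 1 and 1.48 on day 2. Aldh4a1, which completes the path to glutamate, had 75.4, 65.3 and 87.4 against 77.3, 95.9 and 77.1 CPM and a log2 fold change of 0.13 (standard error 0.15).

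In lysine breakdown, Aass, the bifunctional aminoadipic semialdehyde synthase, had 239.5, 184 and 258 CPM in Sucnr1 fl/fl and 215, 224 and 229 CPM in Hep-Sucnr1 KO libraries. Its log2 fold change was −0.03 (standard error 0.16). Aadat, the aminoadipate aminotransferase, had 56.6, 70.8 and 70.8 against 67.5, 103 and 59.3 CPM. Only Hep-Sucnr1 KO replicate 4 stood outside the Sucnr1 fl/fl range, and the log2 fold change of 0.22 (standard error 0.20) became −0.03 without it. Gcdh, the glutaryl-CoA dehydrogenase, was the most abundant of the 3 per length, with 257, 215.5 and 283 against 258, 318 and 256.5 CPM and a log2 fold change of 0.14 (standard error 0.16).

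The transaminases had 3 estimates above 0 and 3 below. Got1 and Got2 encode the cytosolic and mitochondrial aspartate aminotransferases, and Gpt and Gpt2 the alanine aminotransferases. Got1 had 283, 186 and 297 CPM in Sucnr1 fl/fl and 232, 194 and 296 CPM in Hep-Sucnr1 KO libraries, a log2 fold change of −0.08 (standard error 0.24). Got2 was nearly level, at 261 to 305 CPM, and the ratio of Got1 to Got2 counts ranged from 0.635 in Hep-Sucnr1 KO replicate 4 to 1.09. The fold change of Got2 was 0.981 (95% interval from 0.799 to 1.20), that of Gpt 1.02 (0.817 to 1.28) and that of Gpt2 1.00 (0.817 to 1.23). A 1.5-fold difference lay outside each of these 3 intervals.

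Agxt and Agxt2, which both transfer an amino group to glyoxylate, parted in a single library. Agxt had 232.5, 178 and 248 CPM in Sucnr1 fl/fl and 220.0, 145 and 276 CPM in Hep-Sucnr1 KO libraries. Agxt2 had 54.4, 42.9 and 52.7 against 50.1, 74.6 and 52.7 CPM. The ratio of Agxt to Agxt2 counts lay between 4.15 and 4.71 in the Sucnr1 fl/fl libraries. In Hep-Sucnr1 KO replicates 3 and 5 it was 4.39 and 5.23, and in replicate 4 it was 1.94. The log2 fold changes were −0.04 (standard error 0.25) for Agxt and 0.24 (standard error 0.19) for Agxt2, and without Hep-Sucnr1 KO replicate 4 that of Agxt2 was 0.03.

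Some members shared an order of libraries that did not follow genotype. Sucnr1 fl/fl replicate 2 and Hep-Sucnr1 KO replicate 4 were the 2 lowest libraries for 9 members, namely Tat, Sds, Sdsl, Got1, Agxt and the 4 histidine enzymes, which is 22.5% of the members against 11.3% of all genes tested. These 9 were the same under TMM, DESeq2's size factors and library size alone. Of the 8 periportal landmark genes, 6 had the same 2 lowest libraries, among them Cyp2f2 with 1512, 1096 and 1510 CPM in Sucnr1 fl/fl and 1237, 865 and 1579 CPM in Hep-Sucnr1 KO libraries. The same pair was also lowest for 4 of the 7 cholangiocyte markers tested (57.1%) and for 4 of 8 genes that mark dedifferentiation in culture (50%). At the other end, Hep-Sucnr1 KO replicate 4 was the highest library for 18 members (45%), against 19.3% of all genes. It was also highest for 6 of the 8 pericentral landmarks, among them Glul, the glutamine synthetase, with 1002 CPM against 398 to 646 CPM in the other libraries, and Oat, the ornithine aminotransferase, with 354 against 80.5 to 136 CPM. The 8 pericentral landmarks summed to 5294 CPM in this library and to 1297 CPM in Hep-Sucnr1 KO replicate 5, the highest and the lowest sums of the 6 libraries, with 1988 to 3060 CPM in Sucnr1 fl/fl. Cyp2e1 alone gave 3429 CPM in Hep-Sucnr1 KO replicate 4 and 684 CPM in replicate 5. Axin2 and Lgr5 were highest in Hep-Sucnr1 KO replicate 3, and Glul was lowest there. Of those 18 members, the widest ranges over the 6 libraries were those of Prodh (2.29-fold), Aadat (1.82-fold), Agxt2 (1.74-fold) and Hpd (1.69-fold). Sucnr1 fl/fl replicate 2 was the lowest library for 21 members (52.5%), against 19.4% of all genes. That count was 12 with library size alone, and this library had the largest TMM factor, 1.09 against 0.954 to 1.02 in the others. These members were grouped after their values were seen, and the part of the landmark and marker genes' cells in the pattern was not tested.

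**Figure D4:**
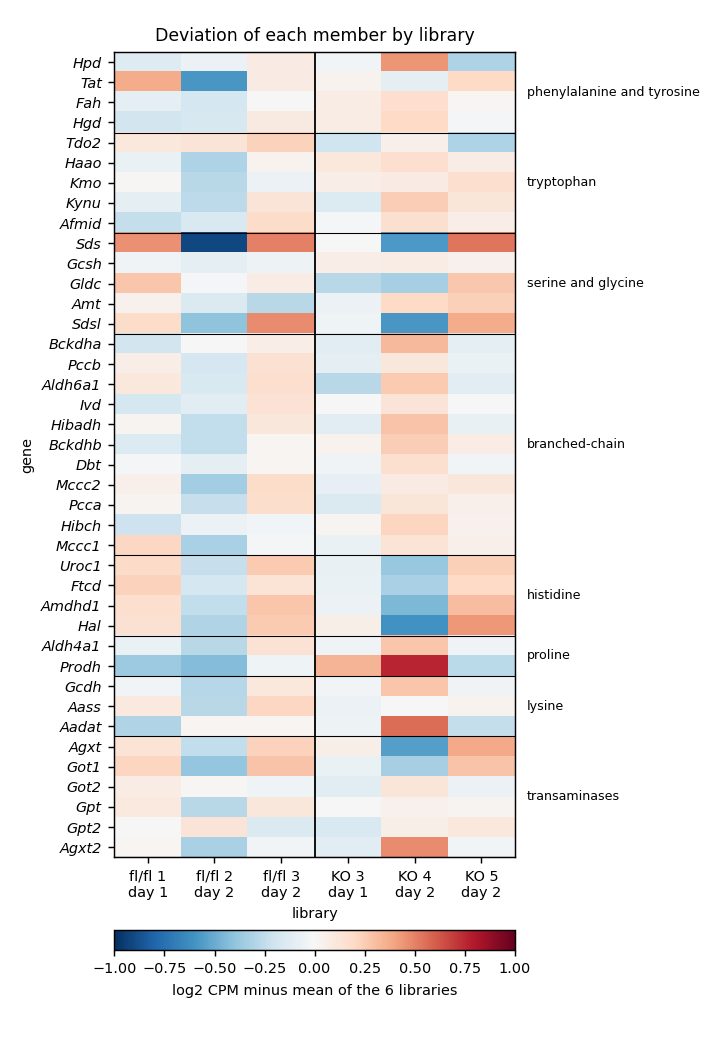
Difference between log2 CPM in a library and its 6-library mean for each enzyme (rows, by pathway) and library (columns, with extraction day), with red above and blue below the mean. The histidine enzymes, Sds, Sdsl, Got1 and Agxt are blue in Sucnr1 fl/fl replicate 2 and Hep-Sucnr1 KO replicate 4, and Prodh, Aadat, Agxt2 and Hpd are most red in Hep-Sucnr1 KO replicate 4.

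**Figure D5:**
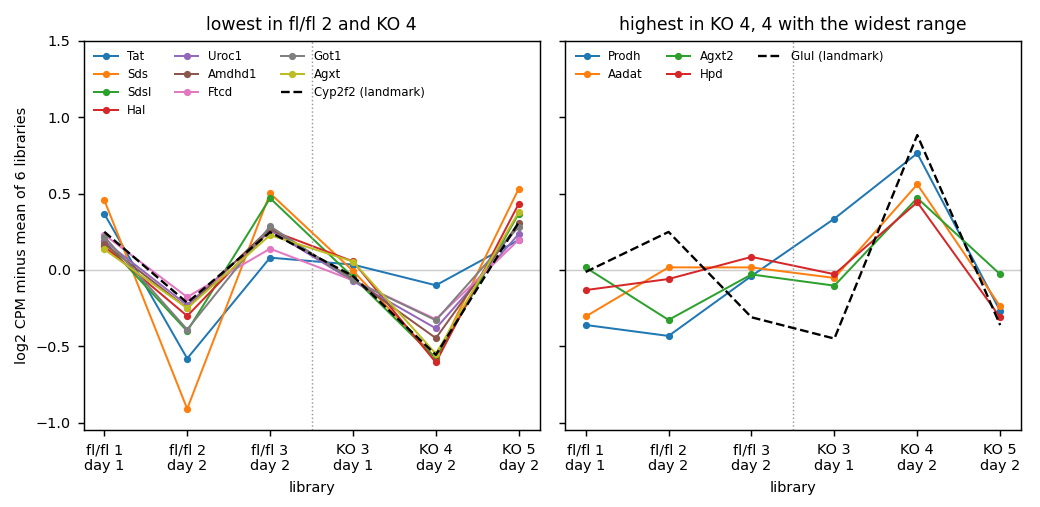
Difference between log2 CPM in a library and its 6-library mean (vertical axis), by library, for the 9 members lowest in Sucnr1 fl/fl replicate 2 and Hep-Sucnr1 KO replicate 4 (left) and the 4 members with the widest range among those highest in Hep-Sucnr1 KO replicate 4 (right), each line joining the values of a gene. Dashed lines show the periportal landmark Cyp2f2 and the pericentral landmark Glul, and the libraries have no order within a genotype.

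Promoter windows of RefSeq (GRCm38.p6, 250 bases before to 50 after a transcription start) were given for 35 of the 40 members, in 39 windows, and not for Dbt, Sdsl, Sds, Gpt and Kynu. Each was searched on both strands for short motifs of factors that act on liver genes. CAAAGTCCA, a form of the HNF4A motif, was found in 3 of the 39 windows, which belong to Agxt2 and Aadat, against 0.475% of all 32851 windows, and both Agxt2 windows hold the same site. TGTTCT, the half-site of the glucocorticoid receptor, was in 15.4% of the members' windows and 19% of all windows. TGACG, the CREB half-site, was in 7.69% against 20.8%, and GTAAACA, of the FOXO factors, in 2.56% against 3.65%. The full sites TGACGTCA of CREB and TTGCGCAA of C/EBP were in 0 of the members' windows and in 1.79% and 0.183% of all windows. TGACG lies inside TGACGTCA. A match is a description of the letters and not a binding site. The windows of 2 genes lowest in Hep-Sucnr1 KO replicate 4, Agxt and Ftcd, and of 2 genes highest in it, Aadat and Agxt2, are shown 5′ to 3′ on the strand of the gene, with the motif matches in capitals. They lie at chr1:93134990-93135289 (Agxt, TGTTCT starting 129 bases before the start), chr10:76575398-76575697 (Ftcd, TGACG), chr8:60505874-60506173 (Aadat, CAAAGTCCA on the opposite strand) and chr15:10358283-10358582 (Agxt2, CAAAGTCCA), all on the plus strand.
Agxt: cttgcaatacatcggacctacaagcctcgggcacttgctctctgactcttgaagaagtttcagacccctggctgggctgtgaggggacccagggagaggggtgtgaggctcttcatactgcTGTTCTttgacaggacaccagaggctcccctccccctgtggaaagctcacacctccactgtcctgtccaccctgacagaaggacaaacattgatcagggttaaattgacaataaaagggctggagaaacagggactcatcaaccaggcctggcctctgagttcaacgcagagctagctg
Ftcd: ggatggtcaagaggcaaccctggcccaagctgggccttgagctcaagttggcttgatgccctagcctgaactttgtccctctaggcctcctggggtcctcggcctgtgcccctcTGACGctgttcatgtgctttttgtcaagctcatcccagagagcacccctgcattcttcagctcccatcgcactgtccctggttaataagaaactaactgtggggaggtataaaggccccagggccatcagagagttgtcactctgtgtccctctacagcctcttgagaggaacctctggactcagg
Aadat: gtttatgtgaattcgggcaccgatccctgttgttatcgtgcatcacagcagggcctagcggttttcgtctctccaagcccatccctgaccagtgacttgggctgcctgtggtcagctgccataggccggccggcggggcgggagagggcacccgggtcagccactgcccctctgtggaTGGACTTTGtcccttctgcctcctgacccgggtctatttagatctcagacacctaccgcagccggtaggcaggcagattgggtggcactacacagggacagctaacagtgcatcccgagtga
Agxt2: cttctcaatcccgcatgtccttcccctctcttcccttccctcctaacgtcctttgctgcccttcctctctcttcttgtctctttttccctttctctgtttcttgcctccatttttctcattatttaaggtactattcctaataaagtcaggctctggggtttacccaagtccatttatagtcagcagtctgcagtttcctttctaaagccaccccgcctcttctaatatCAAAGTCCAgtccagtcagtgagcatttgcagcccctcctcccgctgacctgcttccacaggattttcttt

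Extraction day gave no call among the members either. With edgeR, 0 of the 40 members and 0% of all genes were called for day 2 against day 1, and 0 members had an unadjusted p under 0.05, against 7.49% of all genes. DESeq2 called 0 members and 1.61% of the genes with an adjusted p. The largest member changes were 0.29 for Aadat and −0.29 for Tat on the log2 scale, with unadjusted p of 0.213 and 0.268. The 8 Kupffer cell markers had a median log2 change of 2.06 towards day 2. For day, edgeR called 0 of them (smallest adjusted p of 0.541) and DESeq2 called 1. Their sums on day 1 were 33.2 CPM in Sucnr1 fl/fl replicate 1 and 5.92 CPM in Hep-Sucnr1 KO replicate 3. On day 2 they were 28.5 and 103.5 CPM in Sucnr1 fl/fl and 89.0 and 65.6 CPM in Hep-Sucnr1 KO libraries, so Sucnr1 fl/fl replicate 2 did not share the rise. For the interaction of genotype and day, 0 members and 0% of all genes were called by edgeR, 0 members had an unadjusted p under 0.05 against 3.69% of all genes, and DESeq2 called 0 members against 0.0265% of all genes. The smallest unadjusted interaction p of a member was 0.0781, for Amt.

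Of 40 further enzymes of the same pathways, 36 were tested, with 24 estimates above 0 and 12 below, and 0 were called. The estimate was above 0 for 66.7% of the 36, against 50.5% of all genes. The median log2 fold change was 0.06. Among them, 2 had an unadjusted p under 0.05 in edgeR, against 3.73% of all genes. Shmt1, the cytosolic serine hydroxymethyltransferase, had 50.1, 48.2 and 52.6 CPM in Sucnr1 fl/fl and 59.1, 63.5 and 58.4 CPM in Hep-Sucnr1 KO libraries. All Hep-Sucnr1 KO values were higher, and the log2 fold change was 0.26 (standard error 0.10, unadjusted p of 0.0363). Dhtkd1, of the dehydrogenase that acts on 2-oxoadipate late in lysine and tryptophan breakdown, had 11.8, 10.2 and 14.2 against 7.69, 8.50 and 9.26 CPM. All Hep-Sucnr1 KO values were lower, with a log2 fold change of −0.51 (standard error 0.16, unadjusted p of 0.0173). The largest increase was that of Oat, 0.56 (standard error 0.52), with Hep-Sucnr1 KO replicate 4 as the only value above the Sucnr1 fl/fl range. Both Shmt1 and Dhtkd1 had an adjusted p of 0.998. The genotypes did not overlap for 3 of the 36, Pcbd1 being the other, against 10.6% of all genes.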

How the data were processed

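Hepatocyte RNA of 6 mice, 3 Sucnr1 fl/fl and 3 with the hepatocyte deletion, was profiled by stranded mRNA sequencing. The authors trimmed reads (Trim Galore 0.6.7), aligned them to GRCm38 (STAR 2.7.10a), counted them by strand on Ensembl 102 genes (featureCounts) and deposited raw counts for 25184 genes. How multi-mapping pairs were counted is not given in the sources used here. Symbols, positions and exon lengths came from GENCODE M21 (25130 identifiers matched, 54 did not). At 30504248 to 38770694 counts per library, the spread between mice set the precision (common biological coefficient of variation 0.206).

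Genes with a mean DESeq2-normalized count above 5 were fitted with edgeR 4.0.16 (R 4.3.3; TMM, quasi-likelihood test, day and genotype as terms), with Benjamini-Hochberg adjustment over 15105 genes and a threshold of 0.05. Intervals are 95%, from the standard error and the moderated degrees of freedom (3 residual). Alternatives were DESeq2 1.42.0, other scalings, filters, terms and thresholds, a robust fit and each library left out. The code was checked on simulated counts. Named are members with an unadjusted p under 0.05 for genotype, members called, members whose genotypes do not overlap, and in each pathway the most abundant member and the largest change in each direction. Some further members are described beyond this rule, as are genes chosen after their values were seen. The members and lists were chosen with earlier results of these data known. Replicates are separate mice. Genes that overlap a member on its own strand had at most 0.131 CPM.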

Additional observations from a re-analysis of the deposited data

How the results depend on the processing

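The number of members called stayed at 0 for genotype, for extraction day and for their interaction under every alternative run, with DESeq2, with other scalings and filters, with an FDR threshold of 0.1 and without each library. The interaction was not fitted without either of the 2 day 1 libraries, which would leave a day with 1 genotype, and no day effect exists in the fits without a day term. The number of members with a higher estimate in Hep-Sucnr1 KO, 26, was 17 when the series of library indexes was added as a term, and between 20 and 33 without each library. The number of members without overlap, 7, lay between 8 and 12 without each library and was 12 without Sucnr1 fl/fl replicate 3. A rise is built into a comparison of fewer values, and the share over all genes was not computed for these comparisons. The median log2 fold change lay between −0.01 and 0.14 without each library. Of 600 estimates of a member under an alternative, 559 moved by less than the standard error, 38 moved by more without a call, and 3 changed sign from an estimate larger than its standard error: Aadat, 0.22, which lay between −0.034 and 0.42 without each library and was lowest without Hep-Sucnr1 KO replicate 4, and, with the index series, Afmid, 0.14, at −0.076 and Kynu, 0.15, at −0.011. The cause was not tested. The index series was partly confounded with genotype, since indexes 39 and 40 held only Sucnr1 fl/fl libraries.

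No paired analysis was made, because the labels name no pairs of mice across genotypes. The only replicate number that both genotypes share, 3, belongs to libraries extracted on different days. Extraction day was a term of the model. With 3 mice per genotype the median standard error of a member was 0.15 on the log2 scale, and transcript levels alone do not give enzyme activity or flux.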

Other observations

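Of the 20 amino acid transporters, 9 had an estimate above 0 and 11 below, and 0 were called for genotype. The largest increase was that of Slc1a2, a glutamate transporter of pericentral hepatocytes, with 3.74, 4.90 and 7.45 CPM in Sucnr1 fl/fl and 7.94, 37.6 and 4.83 CPM in Hep-Sucnr1 KO libraries. Its log2 fold change was 1.56 (standard error 0.67, unadjusted p of 0.0542), and Hep-Sucnr1 KO replicate 4 was far above the other libraries. Slc7a8, a neutral amino acid exchanger with the largest decrease, −0.49 (standard error 0.60), differed more by day, with 2.00, 2.56 and 9.53 against 0.443, 7.15 and 5.40 CPM. Its log2 change towards day 2 was 2.43 (standard error 0.71), with an adjusted p of 0.534 in edgeR and 0.00662 in DESeq2. The Kupffer cell marker Clec4f had 7.91, 8.09 and 25.2 against 1.90, 24.8 and 15.7 CPM in the same libraries, and its part in the change of Slc7a8 was not tested.

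Of the 16 regulators of these enzymes, 5 had an estimate above 0 (31.2%, against 50.5% of all genes) and 11 below, and 0 were called. Ppargc1a, the coactivator of fasting gene programmes, had 4.08, 2.74 and 2.90 CPM in Sucnr1 fl/fl and 2.09, 1.57 and 2.52 CPM in Hep-Sucnr1 KO libraries, a log2 fold change of −0.63 (standard error 0.26, unadjusted p of 0.0445). Per1, a clock gene, had 109.9, 65.1 and 59.9 against 36.6, 31.2 and 56.9 CPM, the largest decrease, −0.86 (standard error 0.29, unadjusted p of 0.0228). In the day 2 libraries alone the log2 fold change of Per1 was −0.52 (standard error 0.29). The Hep-Sucnr1 KO values of Ppargc1a and Per1 lay below all Sucnr1 fl/fl values, and both had an adjusted p of 0.998. They were the 2 regulators with an unadjusted p under 0.05 in edgeR, against 3.73% of all genes. The genotypes did not overlap for 4 of the 16, against 10.6% of all genes. The others were Gcgr, higher in Hep-Sucnr1 KO with a log2 fold change of 0.12, and Creb1, lower with −0.20. The largest increase was that of Hnf4a, 0.19 (standard error 0.28).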
